A study of Mus musculus with 45 samples.

Results

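The 41 genes described here encode the scaffold of the sarcomere, the repeating contractile unit of striated muscle. They are 2 muscle actins, 7 proteins that set or cap the thin filament, 16 proteins of titin and the Z-disc, 4 of the M-band, 5 accessory proteins of the thick filament, 4 assembly and stability factors and 3 muscle RING-finger (MuRF) ubiquitin ligases. They were chosen by name and function, with no threshold on their values but with earlier results of these data known. Their counts beside the shares of all genes therefore describe the set and are no independent support. All 41 were found among the 35675 genes into which the transcripts were summed. All 41 are also among the 17325 genes left by the filter on low counts, which a gene can pass through the groups where it is high.

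The data are 45 bulk RNA-seq libraries of mouse cells, 15 groups of 3. The starting cells were untreated mouse embryonic fibroblasts (MEFs) with a dox-inducible MyoD, the transcription factor that turns many cell types into muscle. Dox alone ("MyoD alone") gives multinucleated myotubes, and dox with a small-molecule mix labelled F/R/C ("MyoD with F/R/C") gives induced myogenic progenitor cells (iMPCs). Both arms were sampled on days 2, 4, 6, 8 and 10. The other groups were bulk iMPCs, kept in medium with F/R/C after 13 days of dox and F/R/C and described by the submitters as dox-independent clones, sorted iMPCs positive for Pax7-nGFP, bulk primary myoblasts from skeletal muscle and sorted myoblasts positive for Pax7-nGFP. Every group carried the genotype Tg:Pax7-nGFP/C57BL6;DBA2, in which nuclear GFP marks cells that use Pax7, a gene of muscle stem cells. The genotype label does not name the MyoD construct, and no label says whether the 3 replicates of a group were separate cultures or animals, so p-values measure only the spread between these libraries, which may be technical.

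A sarcomere is bounded by Z-discs, where alpha-actinin crosslinks the actin thin filaments, and is held in register at its centre by the M-band, which crosslinks the myosin thick filaments. Titin spans from the Z-disc to the M-band, nebulin lies along the thin filament, and leiomodins and tropomodulins act at its pointed end. Many of these genes are known targets of MyoD, myogenin and MEF2, and their proteins accumulate when myoblasts stop dividing and fuse into myotubes.

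The libraries held 15.6 to 36.3 M reads (median 22.1 M). The 4 deepest, the 3 of bulk iMPCs and replicate 2 of bulk myoblasts, had 33.2 M or more, and all others at most 28.2 M. Myod1 itself was at 0.820 to 9.80 TPM in MEFs, 1964 to 3311 TPM on day 2 of MyoD alone and 727.3 to 1283 TPM on day 2 with F/R/C. The sorted libraries were quantified with another fragment length setting (180.03 bases against 152.81), and the effect of the sort cannot be told apart from that of this setting. MEF replicate 1 carried more muscle RNA than the other MEF libraries: 30 of the 41 genes were highest there, their median level was 1.58 CPM (a read count scaled to library size) against 0.0465 and 0.0634, and 4 of them had no read against 17 and 15. Of the 3 bulk myoblast libraries, replicate 3 was the lowest in 40 of the 41 genes. In bulk RNA, fewer cells of a type and less RNA per cell cannot be told apart.

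Promoter sequence is shown for genes whose levels the results turn on, as the 250 bases before the transcription start in RefSeq (GRCm38.p6). In these sequences, capitals mark every CANNTG (the E-box, bound by MyoD and related factors), the CArG box (bound by serum response factor) and the MEF2 site, searched on both strands. Of the 41 genes, 30 matched an entry, with 37 start sites. Myom2, Myo18b, Tcap, Neb, Lmod3, Myoz3, Myot, Myoz1, Xirp1, Trim55 and Actn3 did not match.
Acta1, chr8:123894776-123895025, minus strand: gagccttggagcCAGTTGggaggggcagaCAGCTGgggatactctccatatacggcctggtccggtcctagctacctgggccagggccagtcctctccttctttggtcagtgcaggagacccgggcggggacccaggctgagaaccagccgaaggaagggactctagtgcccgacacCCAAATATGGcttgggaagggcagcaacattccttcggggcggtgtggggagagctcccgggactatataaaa
Actc1, chr2:114052876-114053125, minus strand: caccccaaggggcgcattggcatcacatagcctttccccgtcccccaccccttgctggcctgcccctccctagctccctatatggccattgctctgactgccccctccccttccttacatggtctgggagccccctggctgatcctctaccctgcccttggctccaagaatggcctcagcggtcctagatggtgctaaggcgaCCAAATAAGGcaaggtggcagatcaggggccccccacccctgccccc
Cap2, chr13:46501653-46501902, plus strand: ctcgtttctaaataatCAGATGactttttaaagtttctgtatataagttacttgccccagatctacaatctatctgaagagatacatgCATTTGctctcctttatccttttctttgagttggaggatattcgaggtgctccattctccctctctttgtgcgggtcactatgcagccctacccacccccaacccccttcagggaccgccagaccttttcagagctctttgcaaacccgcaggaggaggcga
Mybpc2, chr7:44524670-44524919, minus strand: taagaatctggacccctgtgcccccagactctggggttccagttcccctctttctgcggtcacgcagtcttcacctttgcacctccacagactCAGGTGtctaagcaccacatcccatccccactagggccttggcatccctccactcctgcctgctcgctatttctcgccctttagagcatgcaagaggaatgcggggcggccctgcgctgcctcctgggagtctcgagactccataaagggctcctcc
Tmod4, chr3:95124264-95124513, plus strand: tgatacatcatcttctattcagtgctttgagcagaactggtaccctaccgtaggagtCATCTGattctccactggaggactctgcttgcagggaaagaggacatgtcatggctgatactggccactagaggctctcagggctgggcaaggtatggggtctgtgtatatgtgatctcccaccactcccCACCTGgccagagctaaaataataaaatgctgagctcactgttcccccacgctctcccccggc
Csrp3 downstream start, chr7:48843672-48843921, minus strand: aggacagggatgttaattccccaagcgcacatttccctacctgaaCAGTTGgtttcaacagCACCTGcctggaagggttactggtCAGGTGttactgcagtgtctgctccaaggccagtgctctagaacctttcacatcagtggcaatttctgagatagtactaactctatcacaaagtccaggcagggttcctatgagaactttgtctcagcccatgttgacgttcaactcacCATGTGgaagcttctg
Csrp3 upstream start, chr7:48848052-48848301, minus strand: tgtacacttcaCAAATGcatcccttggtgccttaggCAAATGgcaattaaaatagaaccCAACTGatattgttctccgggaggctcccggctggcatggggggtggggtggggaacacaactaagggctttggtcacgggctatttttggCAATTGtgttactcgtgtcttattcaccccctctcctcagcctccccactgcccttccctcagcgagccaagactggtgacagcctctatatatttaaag
Xirp2, chr2:67445752-67446001, plus strand: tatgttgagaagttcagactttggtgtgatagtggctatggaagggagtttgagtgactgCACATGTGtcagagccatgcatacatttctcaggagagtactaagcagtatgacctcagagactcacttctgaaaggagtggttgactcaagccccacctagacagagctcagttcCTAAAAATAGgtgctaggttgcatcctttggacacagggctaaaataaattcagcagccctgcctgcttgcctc

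The windows of Acta1 and Actc1 each hold 1 CArG box, and that of Xirp2 holds 1 MEF2 site. Over all 37 windows, the E-box CANNTG was in 75.7%, against 66.2% of the 32851 windows of the whole table. The form CAGCTG, part of CANNTG, was in 35.1% against 13.0%, and CAGGTG or its reverse complement CACCTG in 32.4% against 17.2%. The CArG box was in 16.2% against 1.47%, the MEF2 site in 21.6% against 2.92%, and the MCAT element CATTCC or its reverse complement GGAATG in 24.3% against 12.6%. These are matches of letters and describe the windows only.

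Most of these genes were near 0 in MEFs, where Flnc, Acta1, Obsl1 and Ldb3 stood highest, and most were higher within 2 days of dox. Together they made up 0.0329% ± 0.00499 (SD, n = 3) of all TPM (a level scaled to transcript length and library size) in MEFs, 1.84% ± 0.358 on day 2 of MyoD alone and 3.06% ± 0.753 on day 4. In the arm with F/R/C the share was 1.5% ± 0.433 on day 2, and on day 4 it reached 3.54% ± 0.467, the highest of the 15 groups. By day 10 it was 1.96% ± 1.12 with MyoD alone and 2.17% ± 0.515 with F/R/C. Bulk iMPCs were at 2.27% ± 0.375, sorted Pax7-positive iMPCs at 0.228% ± 0.0316, bulk myoblasts at 1.52% ± 1.26 and sorted Pax7-positive myoblasts at 0.732% ± 0.451. In bulk myoblasts the libraries lay far apart, at 2.74%, 1.59% and 0.226%.

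**Figure D1:**
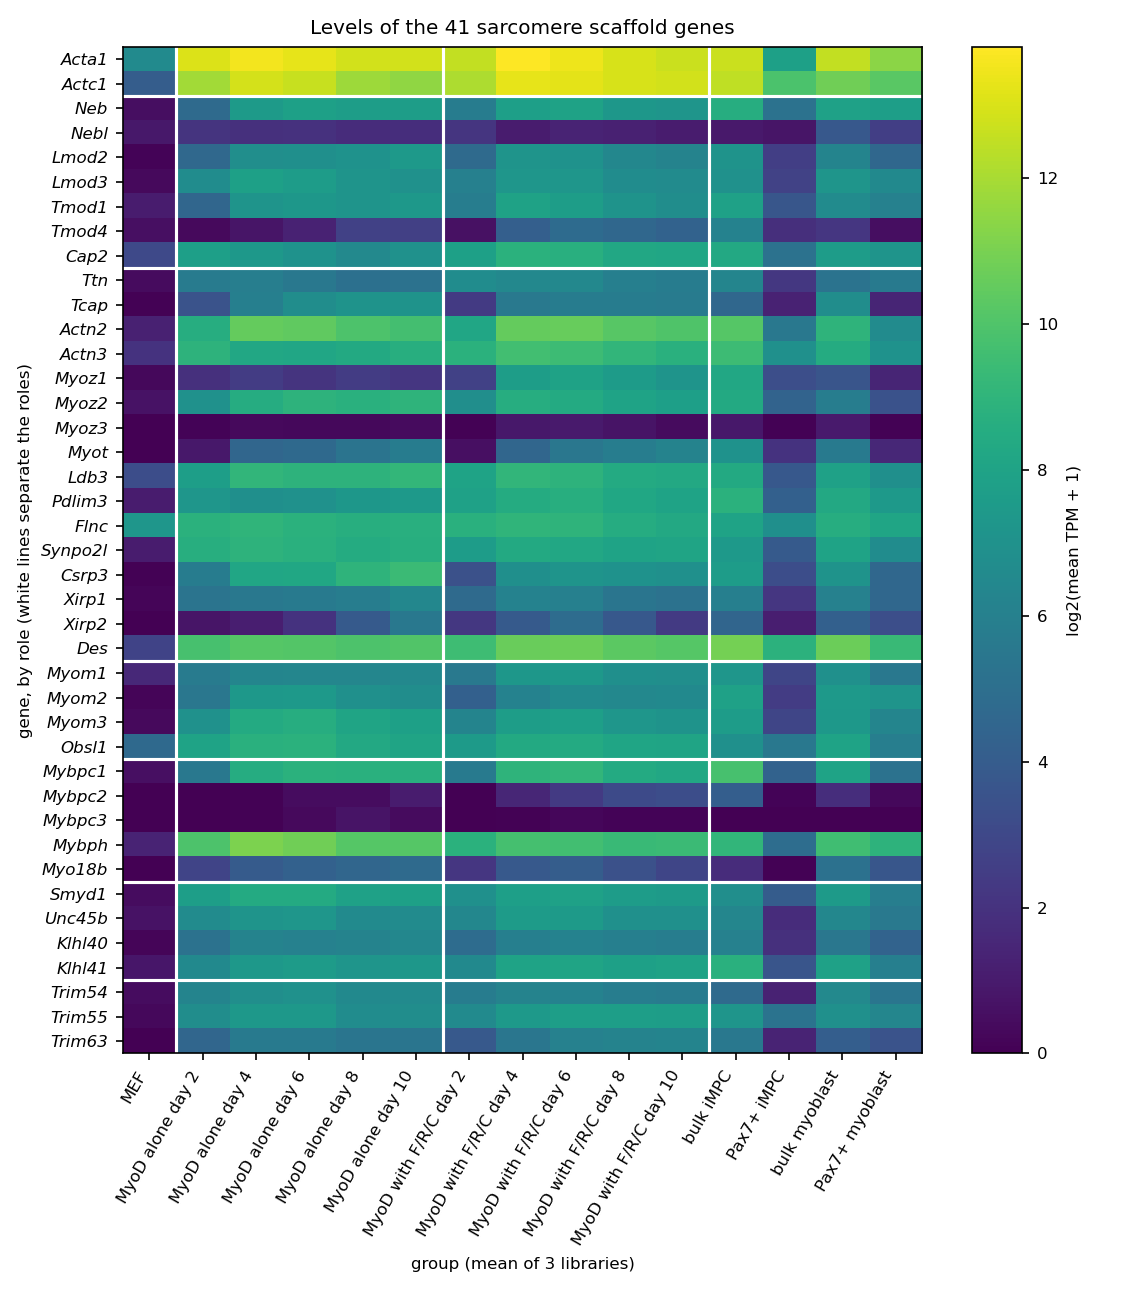
Mean level of each of the 41 genes (rows, by role, white lines between roles) in each of the 15 groups (columns, 3 libraries each), as log2(mean TPM + 1). Most rows are dark in MEFs and bright from day 2 or 4 on, Tmod4, Myot, Mybpc2 and Xirp2 brighten later, Mybpc3 and Myoz3 stay dark, and the column of sorted Pax7-positive iMPCs is darker than its neighbours.

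Against MEFs, with MyoD alone, 36 of the 41 genes were higher on day 2, 38 on day 4, 41 on day 6, 40 on day 8 and 41 on day 10, and none was lower. Of all genes tested, 12.3%, 16.5%, 16.9%, 14.6% and 14.3% were higher on those days, and 10.1%, 11.8%, 10.8%, 6.16% and 4.64% were lower. MyoD with F/R/C gave 36, 39, 40, 40 and 40 higher genes and again none lower, where 11.5%, 18%, 19%, 18.4% and 19% of all genes were higher and 8.93%, 13.2%, 13.2%, 13.3% and 15.8% lower. Calls here and below rest on edgeR's quasi-likelihood test, with a p adjusted over all genes tested (Benjamini-Hochberg) of less than 0.05 and a log2 fold change of 1 or more in size. These 10 comparisons share the 3 MEF libraries. The median log2 fold change of the 41 genes ran from 7.50 on day 2 to 8.82 on day 6 with MyoD alone, and from 7.09 to 9.09 on the same days with F/R/C. For 9 genes (Tcap, Myoz1, Myoz3, Myot, Csrp3, Mybpc2, Mybpc3, Myo18b and Trim63) no MEF library had more than 3 reads, and a fitted fold change for them is not a bound. With MEFs set at no less than 3 reads, the 4 medians became 7.34, 8.52, 7.04 and 8.75.

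The genes not yet called on day 2 were the same in both arms: Tmod4, Myoz3, Myot, Mybpc2 and Mybpc3. Myot (myotilin, a Z-disc protein) and Myoz3 were first called on day 4 in both arms, and Mybpc3, the cardiac form of myosin-binding protein C, on day 6 in both. Tmod4 and Mybpc2, the tropomodulin and the myosin-binding protein C of fast skeletal muscle, were first called on day 4 with F/R/C and on day 6 with MyoD alone. Nebl, which encodes nebulette, a short relative of nebulin known from heart, was the exception among the rest. In the arm with F/R/C it was called on day 2 only. All of its calls against MEFs in both arms were lost without MEF replicate 1, and all but that of day 6 of MyoD alone also without MEF replicate 2 or 3. Its highest group mean was 12.8 TPM, in bulk myoblasts. Myoz3 was again not called on day 8 of MyoD alone.

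The muscle actins were the most abundant of the 41 transcripts. Acta1, skeletal alpha-actin, stood at 56.6, 50.3 and 72.5 CPM in the 3 MEF libraries and at 5025, 7646 and 5513 CPM on day 2 of MyoD alone. It reached 7771, 12104 and 6245 CPM on day 4 of MyoD alone, and 8385, 12111 and 10281 CPM in the F/R/C arm. On day 10 it stood at 3963, 8869 and 2083 CPM with MyoD alone and at 2883, 4041 and 6058 CPM with F/R/C. All induced libraries lay above all MEF libraries, and the 2 arms overlapped on both of these days. Actc1, cardiac alpha-actin, which is also the actin of embryonic skeletal muscle, stood at 33.6, 0 and 0.127 CPM in MEFs, where replicate 1 alone carried it. It was at 5137, 7775 and 6205 CPM on day 4 of MyoD alone and at 7210.4, 9975 and 8418 CPM with F/R/C. By day 10 it was at 1965, 3711 and 1251 CPM with MyoD alone and at 4474, 6198 and 5719 CPM with F/R/C, without overlap. Neither actin was called between the arms on any day.

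The share of Actc1 in the TPM of both muscle actins describes the same difference within each library. On day 2 it was 28.4%, 31.6% and 31.2% with MyoD alone and 41.8%, 40.5% and 45% with F/R/C. On day 10 it was 29.8%, 26.3% and 33.9% with MyoD alone and 57.5%, 57.1% and 45.1% with F/R/C. The arms did not overlap on these 2 days or on day 8. They did on day 4 (36.4%, 35.2% and 45.9% with MyoD alone, 42.1%, 41.4% and 41.3% with F/R/C) and on day 6. Sorted Pax7-positive iMPCs had the highest shares, 76.9%, 66.4% and 91.8%, and bulk myoblasts had 16.3%, 37.5% and 28.0%. An exact permutation test of 3 libraries against 3 cannot give a two-sided p under 0.1, and no other test was run on these shares. Among 8 cardiac markers tested, 4 were higher with F/R/C than with MyoD alone on day 10, where 9.91% of all genes were higher. Their summed level (9 markers) was 26.2 to 44.5 TPM against 5.86 to 13.6 TPM, and Nkx2-5 had no read with MyoD alone. Their part in the actin shares was not tested.

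Within each role, 1 gene had the highest group mean. Cap2, a cyclase-associated protein that binds actin, led the thin filament list at 453.6 ± 68.4 TPM (SD, n = 3) on day 4 with F/R/C. Des (desmin, the intermediate filament around the Z-disc) led the Z-disc list at 1897.5 ± 361.7 TPM in bulk iMPCs. Obsl1, an obscurin-like linker at the M-band, led there at 441.3 ± 156 TPM on day 6 of MyoD alone. Mybph, myosin-binding protein H, led the thick filament list at 2184 ± 503.3 TPM on day 4 of MyoD alone. Klhl41, a kelch protein that stabilises nebulin and the thin filament, reached 439.8 ± 69.4 TPM in bulk iMPCs, and Trim55 (MuRF2) 212.9 ± 33.7 TPM on day 6 with F/R/C. The lowest were Mybpc3 and Myoz3, whose highest group means were 0.657 and 0.996 TPM.

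In single libraries, desmin rose from 13.2, 8.78 and 2.22 CPM in MEFs to 1169.7, 1635 and 1419 CPM on day 2 of MyoD alone and 953, 1265 and 1108 CPM with F/R/C. Obsl1 was already present in MEFs, at 59.6, 29.1 and 23.4 CPM, and reached 756, 1111 and 729 CPM on day 4 of MyoD alone. Mybph was at 4.40, 0 and 0 CPM in MEFs and at 902, 1355 and 944 CPM on day 2 of MyoD alone. On that day the 3 libraries with F/R/C had 353, 650.4 and 379.9 CPM of Mybph, all below those of MyoD alone, although it was not called between the arms. Klhl41 went from 2.37, 0.650 and 0.380 CPM in MEFs to 323, 551 and 441 CPM after 4 days with F/R/C. Trim55 went from 0.791, 0 and 0 CPM to 171, 264 and 214 CPM between the same groups. The induced libraries of these 5 genes all lay above the MEF libraries.

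The order of onset was read as the first day on which a gene's mean CPM reached 50% of its highest day in that arm. With MyoD alone, 17 genes reached it by day 2, 17 more on day 4, 2 on day 6, 3 on day 8 and 2 on day 10. In the presence of F/R/C, 8 reached it by day 2, 30 on day 4 and 3 on day 6. The counts for day 2 follow the cut: at 25% of the highest day they were 28 with MyoD alone and 24 with F/R/C, and at 75% they were 6 and 2. The median gene stood on day 2 at 45.2% of its highest day with MyoD alone and at 33.4% with F/R/C, and on day 4 at 94.6% and 100%. All 3 replicates taken singly gave the same day for 24 genes with MyoD alone and for 26 with F/R/C.

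The first genes to come on with MyoD alone were spread over the roles: Acta1 of the actins, Cap2 and Nebl of the thin filament list, 8 of 16 Z-disc genes (Ttn, Actn3, Myoz1, Pdlim3, Flnc, Synpo2l, Xirp1 and Des), Myom1 and Obsl1 of the M-band, the myosin chaperones Smyd1 and Unc45b, and Trim54 and Trim55. None of the 5 thick filament accessory genes was among them. The first with F/R/C were Nebl, Trim54 and 6 Z-disc genes (Ttn, Actn3, Ldb3, Pdlim3, Flnc and Synpo2l). The last genes with MyoD alone were Tcap and Myot on day 6, Csrp3, Tmod4 and Mybpc3 on day 8, and Xirp2 and Mybpc2 on day 10. The last with F/R/C were Myot, Mybpc2 and Mybpc3, on day 6.

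The onset day was the same in both arms for 24 genes. It was later with F/R/C for 10 (Acta1, Cap2, Des, Myom1, Myoz1, Obsl1, Smyd1, Trim55, Unc45b and Xirp1), in each case day 4 in place of day 2. It was earlier with F/R/C for 7 (Csrp3, Ldb3, Mybpc2, Mybpc3, Tcap, Tmod4 and Xirp2). Of these, Ldb3 and Mybpc2 passed the cut narrowly with F/R/C, and Mybpc3 had at most 17 reads in any library of that arm. The highest day also differed. In the F/R/C arm it was day 4 for 22 genes and day 6 for 15, and day 10 for 3 (Myot, Mybpc2 and Trim63). With MyoD alone it was day 10 for 11 genes. Since onset is read against each arm's own highest day, a gene that rises far higher in 1 arm, such as Myoz1, can be equally high on day 2 and still have a later onset there. Nor does an earlier onset mean a higher level. On day 4 the log2 fold changes of F/R/C against MyoD alone were negative for Csrp3 (-1.33), Tcap (-0.39), Mybpc3 (-0.25) and Ldb3 (-0.04), none called. Mybpc2, Tmod4 and Xirp2 were called higher.

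**Figure D2:**
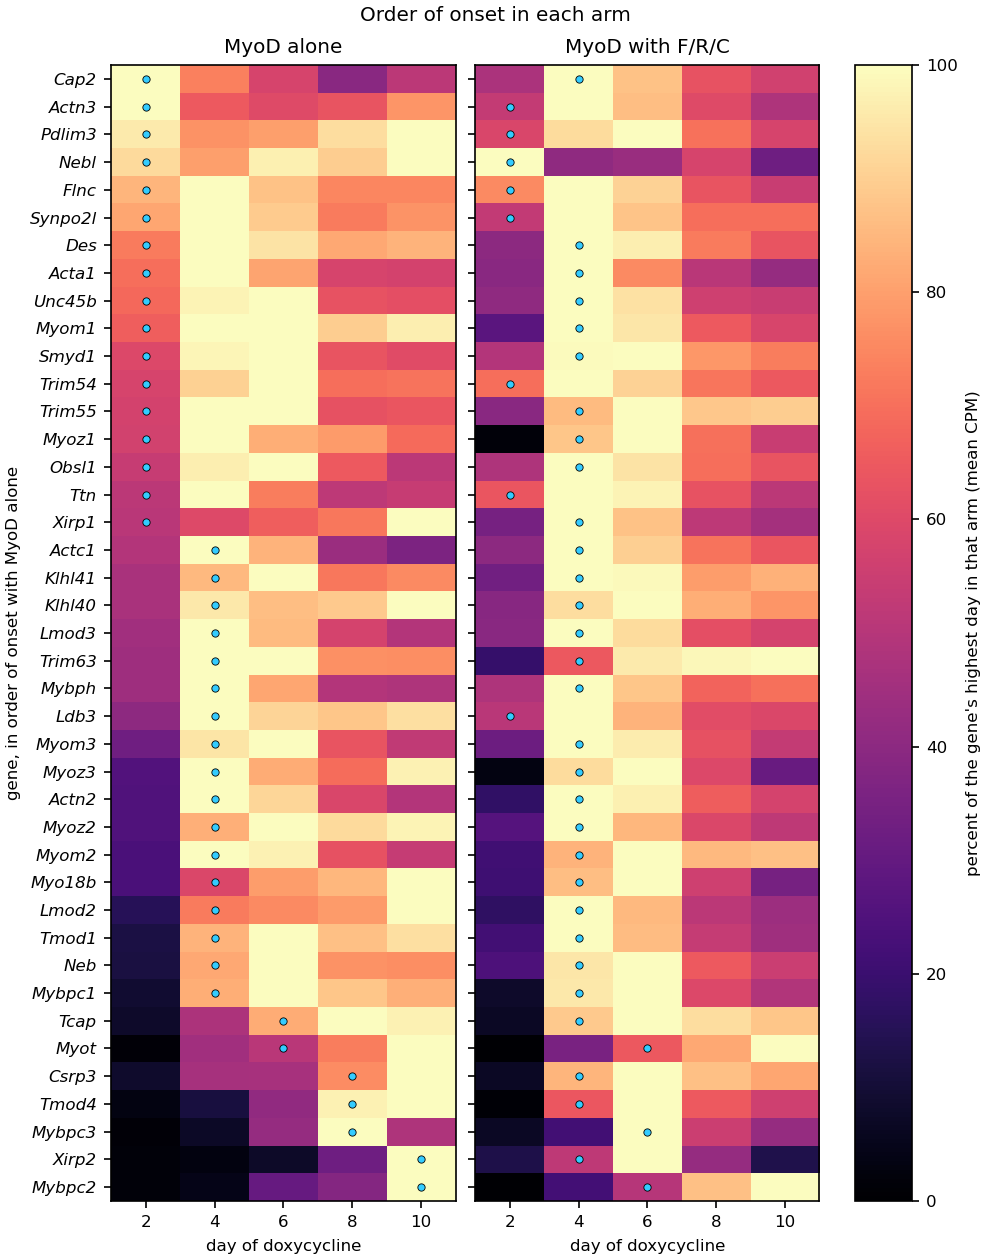
Mean CPM on each day of doxycycline as a percentage of the gene's highest day in the same arm, for MyoD alone (left) and MyoD with F/R/C (right), with genes ordered by onset in MyoD alone. Dots mark the first day at 50% or more: 17 genes on day 2 on the left and 8 on the right, and Xirp2 and Mybpc2 on day 10 on the left.

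Between day 2 and day 4 of MyoD alone, 4 of the 41 genes rose and none fell, where 2.18% of all genes rose and 0.317% fell. They were Neb (log2 fold change 2.80, adjusted p = 0.0046 in edgeR's quasi-likelihood test), Tmod1 (2.77, 0.035), Tcap (2.62, 0.038) and Myot (4.87, 0.0096). Nebulin and tropomodulin 1 belong to the thin filament, telethonin (Tcap) caps titin at the Z-disc, and 37 of the 41 genes had a positive value. Neb kept its call in all 6 fits that left out 1 library, and the other 3 lost theirs without any one of the day 2 libraries. Over the same interval 10 genes rose with F/R/C and none fell, where 2.74% of all genes rose and 0.196% fell: Neb (1.97), Lmod2 (2.54), Mybpc1 (3.58), Csrp3 (3.64), Tcap (3.69), Myoz3 (4.71), Mybpc2 (5.54), Myot (5.57), Myoz1 (5.71) and Tmod4 (6.18). The medians over the 41 genes were 1.02 and 1.53 on the log2 scale. These counts depend on the fit: DESeq2 called 7 higher with MyoD alone and 16 with F/R/C. Fits of only the compared groups called more still. Tcap, Myot, Myoz1 and Tmod4 kept their calls in all 6 fits without 1 library. Whether the rise differed between the arms was not tested for this interval.

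From day 4 to day 10 of MyoD alone, Mybpc2 (4.42, adjusted p = 0.042) and Xirp2 (5.04, 0.039) rose in edgeR's quasi-likelihood test and none fell, where 0.352% of all genes rose and 0.525% fell. Neither call was firm, since leaving out single libraries left 0 or 1 of the 41 genes called. For the arm with F/R/C, edgeR called 0 of the 41 over that interval, where 4.06% of all genes rose and 3.29% fell. At an unadjusted p under 0.05 there were 1 higher and 2 lower, and DESeq2 also called 0. With only the compared groups fitted, a few of the 41 were called in this arm. The medians were -0.10 with MyoD alone and -0.69 with F/R/C, and 35 of the 41 genes had a negative value with F/R/C.

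Compared with MyoD alone on the same day, MyoD with F/R/C differed in 8 of the 41 genes on at least 1 day, and in a few of these by a wide margin. The other 33 were called on no day in the fit of all 45 libraries. With only the compared groups fitted, more of the 41 were called on days 2 and 6. On day 2 none was higher and 1 was lower, where 2.13% of all genes were higher and 2.8% lower. On day 4, 6 were higher and 0 lower (6.58% and 6.66% of all genes), and on day 6, 5 and 0 (8.23% and 7.14%). On day 8 it was 3 and 1 (9.2% and 9.46%), and on day 10, 3 and 3 (9.91% and 13.4%). Counting both directions, the share of the 41 genes called was near or below that of all genes on every day. The median log2 fold change of the 41 genes was -0.34, 0.03, 0.14, -0.23 and -0.35 on days 2 to 10. The 35 genes not called on day 10 ranged from -1.98 (Mybpc3, SE 1.09) to 1.93 (Tmod4, SE 0.86), with a median standard error of 0.66, so differences of several fold in single genes would not have been called.

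Myoz1 differed most. It encodes calsarcin-2, the Z-disc binding partner of calcineurin and alpha-actinin in fast fibres. In MEFs it had 0.0879, 0 and 0 CPM. On day 2 it stood at 0.973, 1.72 and 1.26 CPM with MyoD alone and at 1.25, 2.20 and 3.08 CPM with F/R/C. On day 4 it was still at 1.71, 2.74 and 2.48 CPM with MyoD alone, and at 41.9, 123.5 and 177.3 CPM with F/R/C. It never passed 3.11 CPM in any library of MyoD alone, and on day 10 it stood at 26.5, 34.1 and 151.8 CPM with F/R/C. The groups overlapped on day 2 and did not from day 4 on. In edgeR's quasi-likelihood test, F/R/C against MyoD alone gave log2 fold changes of 5.63 (SE 0.859, adjusted p = 1.6e-05), 6.07 (9.5e-06), 5.65 (1.9e-05) and 5.48 (1.3e-05) on days 4 to 10. Of the TPM of the 3 calsarcin genes (Myoz1, Myoz2 and Myoz3), Myoz1 made up at most 2.70% with MyoD alone, and 20.7%, 31.5% and 44.3% on day 4 with F/R/C.

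Mybpc2 and Tmod4 followed with lower levels. Mybpc2 stood at 0.0450, 0.0508 and 0.207 CPM on day 4 of MyoD alone and at 1.65, 3.11 and 6.66 CPM with F/R/C (edgeR's quasi-likelihood test, log2 fold change 5.19, SE 1.15, adjusted p = 0.0012). On day 10 it was at 1.80, 2.63 and 2.23 CPM with MyoD alone and at 3.74, 4.87 and 43.3 CPM with F/R/C, where replicate 3 lay far above the others (2.96, adjusted p = 0.0074). Without that library the value was 1.10 and the call was lost (adjusted p = 0.29). Tmod4 stood at 0.0901, 0.152 and 0.569 CPM on day 4 of MyoD alone and at 1.33, 6.11 and 23.5 CPM with F/R/C (5.25, SE 1.06, adjusted p = 0.00046). It was called on days 4 and 6 and not on days 8 and 10. On day 10 the libraries overlapped, at 1.80, 2.58 and 2.68 CPM with MyoD alone and 1.99, 4.19 and 20.8 CPM with F/R/C.

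Cap2 was more abundant than Myoz1, Mybpc2 and Tmod4 in both arms. With MyoD alone it was at 202.9, 319.4 and 316.6 CPM on day 2, its highest day, and at 103.8, 165.5 and 60.9 CPM on day 8, an interval that was not tested. The libraries with F/R/C stood at 523.8, 712.1 and 512 CPM on day 4 and on day 8 at 313.8, 420.3 and 365.1 CPM, above every library of MyoD alone on those days. By edgeR's quasi-likelihood test, its log2 fold change on days 4 to 10 was 1.5 (SE 0.419, adjusted p = 0.0087), 1.65 (0.0041), 1.74 (0.0021) and 1.19 (0.022). The day 10 call was lost without replicate 3 of MyoD alone (1.02, adjusted p = 0.079). Actn3, the alpha-actinin of fast fibres, was called higher with F/R/C on day 4 only: 500.7, 567.1 and 501.2 CPM against 1209.7, 1553 and 1312 CPM (1.38, SE 0.505, adjusted p = 0.046). On day 6 its value was nearly as large and just missed the cut (1.28, SE 0.504, adjusted p = 0.057). Its F/R/C libraries lay above all those of MyoD alone on days 4, 6 and 8. The day 4 call was lost in 5 of the 6 fits that left out 1 library of the day, all but the one without replicate 1 of F/R/C.

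Csrp3 ran the other way. It encodes muscle LIM protein, a Z-disc protein that also binds myogenic factors, and it stood at 15.1, 32.3 and 29.0 CPM on day 2 of MyoD alone and at 3.26, 6.56 and 3.64 CPM with F/R/C. In edgeR's quasi-likelihood test its log2 fold change was -2.51 (SE 0.776, adjusted p = 0.040), a call lost in 5 of the 6 fits without 1 library, all but the one without replicate 1 of MyoD alone. On day 10 it stood at 236.4, 544.8 and 133.2 CPM with MyoD alone and at 24.6, 38.9 and 98.1 CPM with F/R/C, without overlap (-2.50, SE 0.75, adjusted p = 0.0082). It was called on day 8 too (-2.01, adjusted p = 0.035). Without replicate 2 of MyoD alone, the highest library of that arm, the day 8 and day 10 calls were lost (-1.29, adjusted p = 0.21, and -1.70, adjusted p = 0.078). The day 8 call was also lost without replicate 1 of MyoD alone, and without replicate 1 or 2 of F/R/C (-2.05 to -1.79, adjusted p 0.056 to 0.12). Myo18b, an unconventional myosin needed for sarcomere assembly, stood at 89.5, 180.4 and 47.7 CPM on day 10 of MyoD alone and at 26.1, 18.7 and 26.9 CPM with F/R/C (-2.15, SE 0.791, adjusted p = 0.029). Without that same replicate 2 it was at -1.42 and not called (adjusted p = 0.18). Leaving out any other library of the day but replicate 3 of MyoD alone also ended the call (-2.21 to -1.89).

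Xirp2, a Xin repeat protein of the Z-disc region and the myotendinous junction, crossed over. With MyoD alone it was at 5.84, 11 and 1.44 CPM on day 2 and at 257, 741.1 and 42.9 CPM on day 10. F/R/C libraries were already at 21.5, 46.1 and 22.5 CPM on day 2, stood at 330.7, 257.3 and 97.6 CPM on day 6, and were back at 39.3, 20.3 and 33.3 CPM on day 10. By edgeR's quasi-likelihood test, Xirp2 was higher with F/R/C on day 4 (log2 fold change 3.5, SE 1.21, adjusted p = 0.034) and day 6 (3.12, 0.048) and lower on day 10 (-3.49, SE 1.20, adjusted p = 0.020). The day 4 and day 6 calls were each lost in 5 of the 6 fits without 1 library, all but the one without replicate 3 of F/R/C. The day 10 call was lost without replicate 2 of MyoD alone (-2.17, adjusted p = 0.15), and without replicate 2 or 3 of F/R/C (-3.14 and -3.38, adjusted p = 0.089 and 0.061). The change of the difference from day 2 to day 10 was itself tested, and of the 41 genes Myoz1 (4.75, SE 1.15, adjusted p = 0.013) and Xirp2 (-5.80, SE 1.68, adjusted p = 0.029) were called, where 2.24% of all genes had a positive and 3.77% a negative call. The call of Xirp2 was lost in 7 of 18 alternatives and that of Myoz1 in none of them.

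**Figure D3:**
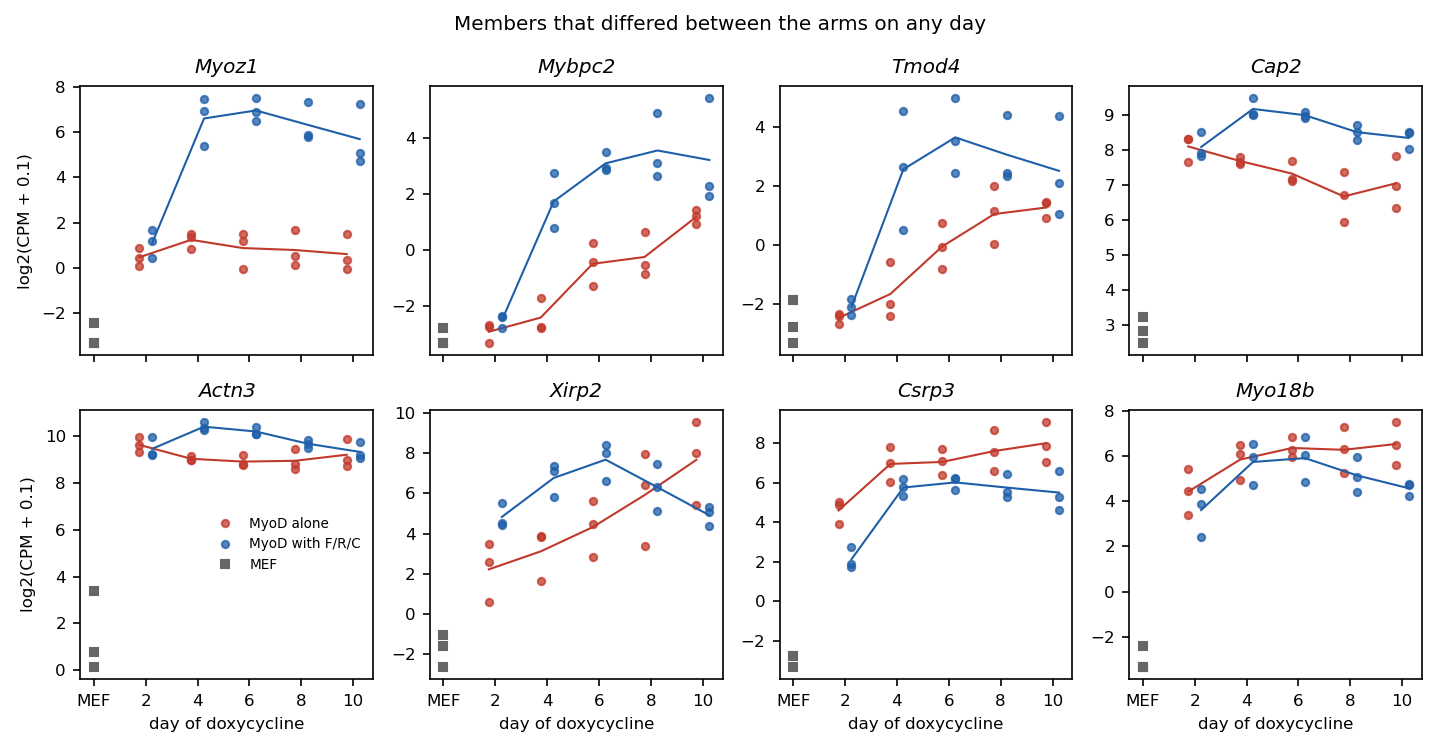
CPM of the 8 genes that were called between the arms on any day, as log2(CPM + 0.1), by day of doxycycline: red for MyoD alone, blue for MyoD with F/R/C, squares for MEFs, 1 point per library and lines through the means of the plotted values. Myoz1 stays at or below 3.11 CPM with MyoD alone while the F/R/C libraries lie at 26.5 CPM or more from day 4 on, and the lines of Xirp2 cross between day 6 and day 10.

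Other genes moved between the arms on the same day, and on day 10, 9.91% of all genes were higher with F/R/C and 13.4% lower. On day 10, 7 of 8 proliferation markers were higher with F/R/C, with a summed level of 280.9 to 645.8 TPM against 26.5 to 237.1 TPM. Of 8 progenitor markers, 3 were higher and 2 lower (530.7 to 726 TPM against 384.9 to 453.5 TPM), and Myf5 and Calcr had no read with MyoD alone. Of 11 fibroblast markers, 1 was higher and 3 lower (643.6 to 2638 TPM against 3633 to 9471 TPM). Of 8 smooth muscle markers, 3 were lower and none higher. Of the adipocyte, neuronal and endothelial lists of 4 tested genes each, 0, 1 and 0 were higher and 0, 1 and 1 lower. Their part in the differences of the scaffold genes was not tested.

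Paralogs within a family did not move together. Actn3 made up 56.6%, 55.4% and 54.1% of the TPM of Actn2 and Actn3 on day 2 of MyoD alone, and 19.9%, 14.1% and 18.7% on day 4, when Actn2 had become the main muscle alpha-actinin. Its share with F/R/C was 64.9%, 61.2% and 57.0% on day 2 and 39.9%, 33.4% and 31.1% on day 4. The shares were lower on day 4 than on day 2 in every library of both arms, and those with F/R/C lay above those of MyoD alone on both days and on day 6. The arms overlapped on days 8 and 10, and on day 10 the share was 33.3%, 30.6% and 38.4% with MyoD alone and 33.5%, 25.9% and 30.9% with F/R/C. Lmod2 made up 20.7%, 19.5% and 16.3% of the TPM of Lmod2 and Lmod3 on day 2 of MyoD alone and 57.7%, 60.4% and 50.2% on day 10. The arm with F/R/C had 48.0%, 48.8% and 48.1% on day 4 and 35.0%, 41.4% and 44.4% on day 10, when every library lay below those of MyoD alone. Both leiomodins nucleate actin filaments, Lmod2 being known mainly from heart and Lmod3 from skeletal muscle. Among the myomesins, Myom3 led with MyoD alone, at 59.6%, 59.9% and 55.4% of the family's TPM on day 4, and its share in bulk iMPCs was 32.1%, 36.0% and 32.9%, where Myom2 had 44.0%, 38.5% and 38.9%.

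Some members also differed between groups in the transcript they used. Of the 41 genes, 16 had at least 2 transcripts that each took 20% or more of the reads somewhere, and those named here were singled out after their values were seen. Filamin C (Flnc), an actin crosslinker of the Z-disc, was already expressed in MEFs. Transcript Flnc-202 skips exon 31 of Flnc-201, 99 bases that encode 33 codons, and is otherwise joined across it. Pdlim3 (ALP, a LIM protein that binds alpha-actinin) has a transcript Pdlim3-201 with a 188-base exon 4 and a transcript Pdlim3-203 with exons of 68 and 264 bases in that place. The exons are shown with 15 flanking transcript bases in lower case and the exon in capitals, from the transcript sequences of GENCODE (GRCm38), all on the plus strand.
Flnc-201 exon 31, chr6:29452799-29452897: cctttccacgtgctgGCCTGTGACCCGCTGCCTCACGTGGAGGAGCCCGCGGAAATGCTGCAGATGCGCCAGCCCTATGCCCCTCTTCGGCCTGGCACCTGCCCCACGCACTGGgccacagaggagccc
Pdlim3-201 exon 4, chr8:45908469-45908656: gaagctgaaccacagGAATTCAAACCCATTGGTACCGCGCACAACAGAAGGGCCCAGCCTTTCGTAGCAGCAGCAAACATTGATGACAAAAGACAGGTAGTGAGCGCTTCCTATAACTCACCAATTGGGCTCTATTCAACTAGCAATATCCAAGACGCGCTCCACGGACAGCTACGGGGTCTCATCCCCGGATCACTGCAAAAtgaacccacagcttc
Pdlim3-203 exon 4, chr8:45909019-45909086: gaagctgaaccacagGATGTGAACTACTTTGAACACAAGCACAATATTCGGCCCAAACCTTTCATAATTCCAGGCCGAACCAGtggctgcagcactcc
Pdlim3-203 exon 5, chr8:45913697-45913960: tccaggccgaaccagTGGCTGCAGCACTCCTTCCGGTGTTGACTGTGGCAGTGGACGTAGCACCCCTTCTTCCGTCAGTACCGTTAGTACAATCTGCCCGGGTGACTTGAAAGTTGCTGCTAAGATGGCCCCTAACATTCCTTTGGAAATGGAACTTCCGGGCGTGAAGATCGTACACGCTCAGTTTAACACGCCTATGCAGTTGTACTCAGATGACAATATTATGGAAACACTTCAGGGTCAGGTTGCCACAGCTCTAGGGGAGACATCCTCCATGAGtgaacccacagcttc

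Flnc-202 took at most 1.74% of the Flnc reads in MEFs and 18.4%, 19.9% and 13.7% on day 2 of MyoD alone. It took 49.9%, 65.1% and 54.8% on day 4. Under F/R/C it took 16.9%, 18.1% and 13.6% on day 2 and 59.5%, 73.9% and 67.2% on day 4. It was the main form in bulk iMPCs at 97.2%, 96.5% and 96.0%, and took 28.1%, 24.6% and 42.8% in sorted Pax7-positive iMPCs. In bulk myoblasts it was at 66.3%, 93.6% and 2.74%, replicate 3 again standing apart. The 4 libraries with 93.6% or more are the 4 deepest of the series, and the part of depth in these shares was not tested. The level of Flnc as a whole was 151.1 TPM in MEFs and 516.1 TPM on day 4 of MyoD alone. Bulk iMPCs had 256.5 TPM, and Flnc was not called there against MEFs because its log2 fold change of 0.92 was under 1.

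Pdlim3-203 was a minor form on day 2 and took up to 53.7% of the reads on day 10. It took 6.5%, 4.26% and 4.37% of the Pdlim3 reads on day 2 of MyoD alone and 50%, 50.9% and 53.7% on day 10. Under F/R/C it went from 4.59%, 5.74% and 5.54% to 33.2%, 32.9% and 51.6%. The mean share of Flnc-202 was 58.2 percentage points higher on day 10 of MyoD alone than in MEFs, and 73.8 points higher with F/R/C. That of Pdlim3-203 was 46.5 and 34.0 points higher on day 10 than on day 2, without overlap of the days in either arm. Obsl1-202 went from 6.96%, 5.71% and 4.81% in MEFs to 66.1%, 66.8% and 65.7% on day 4 of MyoD alone. Ldb3-201 was at 20.8%, 68.6% and 65.7% in MEFs and at 4.81%, 4.44% and 6.02% on day 10 of MyoD alone, MEF replicate 1 lying toward the induced cells. Shares of transcripts are estimates that divide reads between overlapping forms, with an error these files do not give, and 3 libraries against 3 cannot reach a two-sided p under 0.1 in an exact permutation test.

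**Figure D4:**
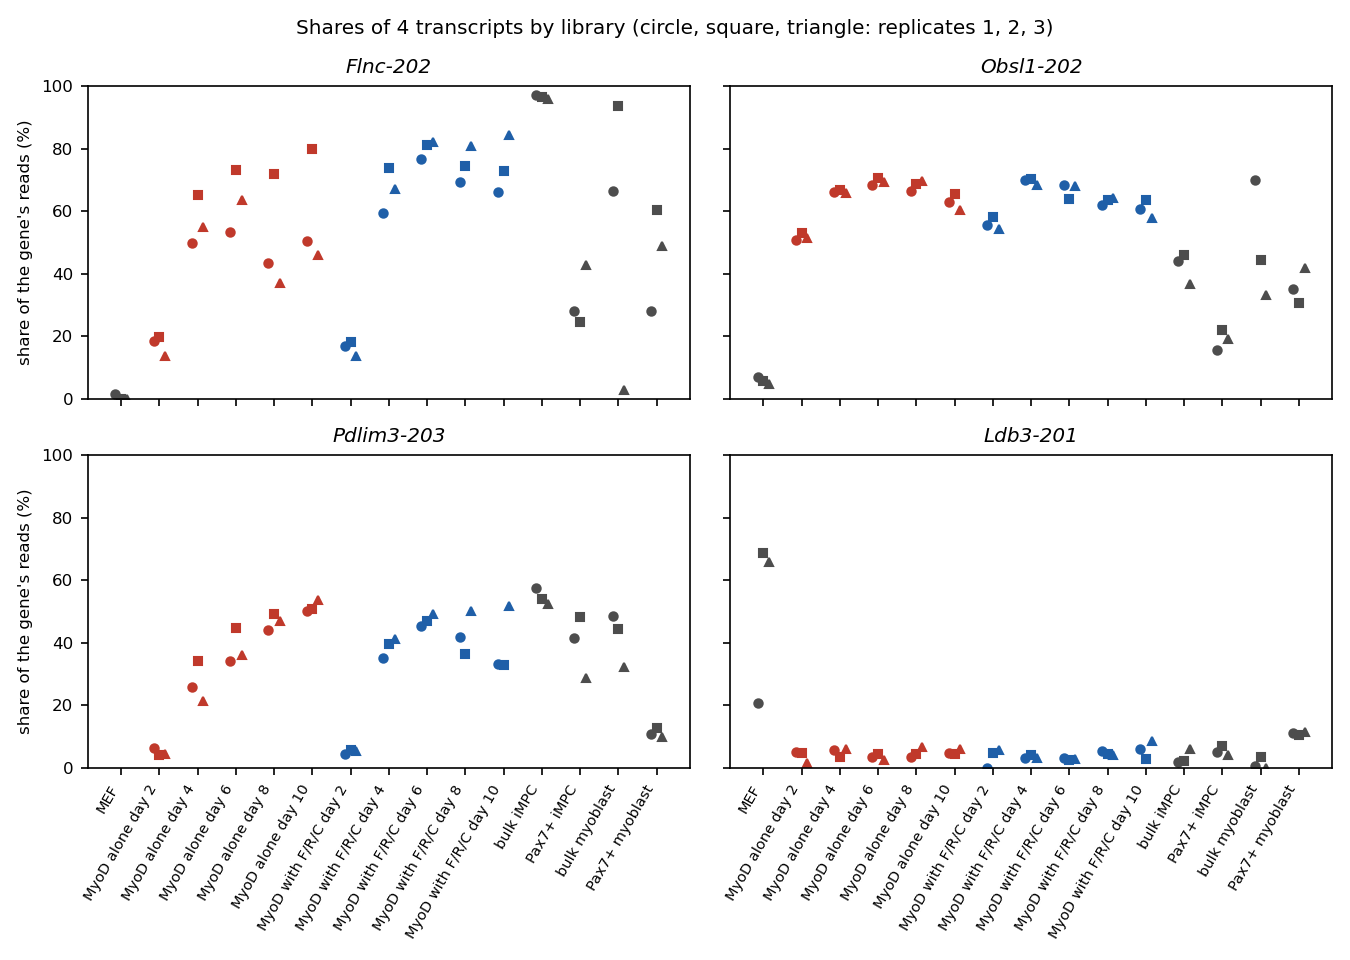
Share of each gene's reads (%) assigned to Flnc-202, Obsl1-202, Pdlim3-203 and Ldb3-201 in every library (circle, square and triangle for replicates 1, 2 and 3), red for MyoD alone, blue for MyoD with F/R/C and grey for the other groups. Flnc-202 goes from at most 1.74% in MEFs to 96.0% or more in bulk iMPCs, and libraries with under 100 reads of the gene are not drawn.

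Established bulk iMPCs expressed nearly all of the scaffold. Against MEFs, 38 of the 41 genes were higher in bulk iMPCs and none lower, where 19.2% of all genes were higher and 16.2% lower. The exceptions were Flnc, Nebl and Mybpc3. The highest fitted fold changes were those of Myoz1, Myot and Csrp3, at 224.9, 125.5 and 161.1 CPM of Myoz1, 188.8, 113.5 and 192.4 CPM of Myot and 111.5, 69.2 and 86.6 CPM of Csrp3, against at most 0.127 CPM in any MEF library. No MEF library had more than 3 reads of any of them, so the fitted values are not bounds and their rank is not firm. Set against the tenth day of F/R/C, bulk iMPCs had 0 called genes of the 41 in edgeR, where 3.33% of all genes were higher and 6.24% lower. At an unadjusted p under 0.05, 1 was higher and 2 lower, and DESeq2 called 1 higher and 1 lower. The fitted values ran from -2.58 (Mybpc3) to 2.32 (Xirp2). Without replicate 3 of the F/R/C group, 3 genes were called.

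Bulk iMPCs and bulk primary myoblasts differed in 9 of the 41 genes, 5 higher in iMPCs (10.9% of all genes) and 4 lower (8.7%), shares near those of all genes. Myoz1 was at 224.9, 125.5 and 161.1 CPM in iMPCs and at 4.22, 10.4 and 0.582 CPM in myoblasts (log2 fold change 5.05, adjusted p = 2.4e-05 in edgeR's quasi-likelihood test). Tmod4 was at 30.3, 24.8 and 25.6 CPM against 0.763, 2.55 and 0.109 CPM (4.52, adjusted p = 0.00049). The other genes higher in iMPCs were Mybpc2 (2.89), Myoz2 (2.74) and Trim63, which encodes MuRF1 (1.56). Lower were Myo18b, at 15.4, 5.58 and 4.49 CPM against 279.3, 82.4 and 9.94 CPM (-3.86, adjusted p = 0.00078), Nebl (-3.59), Tcap (-2.03) and Trim54, which encodes MuRF3 (-1.62). Myoz1, Tmod4 and Nebl kept their calls in all 12 alternative fits, and with only these 6 libraries fitted the other 6 genes lost theirs. Over the 12 fits, Trim63 lost its call in 6, Tcap in 5, and Mybpc2 and Trim54 in 2 each. Tcap overlapped between the groups, at 15.6, 6.6 and 9.68 CPM in iMPCs and 67.3, 60.6 and 2.77 CPM in myoblasts. Of 11 fibroblast markers, 10 were higher in bulk iMPCs and 1 lower, at 1466 to 2482 TPM in sum against 502.1 to 2003 TPM, and Lum had no read in bulk myoblasts. Their part in these differences was not tested.

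Sorted Pax7-positive iMPCs held far less scaffold RNA than bulk iMPCs. In the sorted libraries, 37 of the 41 genes were lower and none was higher, where 20.5% of all genes were lower and 9.88% higher. The median log2 fold change was -4.40, and -0.13 over all genes. Mybpc2 (-6.97), Myom2 (-5.62) and Myot (-5.50) differed most. Mybpc2 stood at 0.130, 0.364 and 0.310 CPM in sorted iMPCs against 56.2, 19.2 and 27.2 CPM in bulk, and Myom2 at 7.67, 17.9 and 7.55 CPM against 736.8, 442.9 and 453.6 CPM. The 4 genes not called were Flnc (-0.65), Obsl1, Nebl and Mybpc3, and Actc1 lost its call in 5 of the 6 fits without 1 library, all but the one without replicate 3 of the sorted iMPCs. Desmin was still at 1101, 700.1 and 504.2 CPM. Of 8 progenitor markers, 4 were higher and 1 lower after the sort, and of 8 proliferation markers 2 were higher, at 1121 to 1389 TPM in sum against 339.8 to 763.1 TPM. The gate, the other fragment setting and the lower scaffold levels cannot be told apart here.

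Sorted iMPCs also held less scaffold RNA than sorted myoblasts. Against Pax7-positive myoblasts, 25 of the 41 genes were lower (17.6% of all genes) and 1, Myoz1, was higher (2.21, adjusted p = 0.024 in edgeR's quasi-likelihood test, against 12.4% of all genes). The call of Myoz1 was lost without replicate 2 of the sorted iMPCs and without replicate 1 or 2 of the sorted myoblasts. The lower ones were 1 of 2 actins, 6 of 7 thin filament genes, 7 of 16 Z-disc genes, 3 of 4 M-band genes, 2 of 5 thick filament accessory genes, all 4 assembly factors and 2 of 3 MuRF genes. Of these calls, Tmod1 (-1.63), Smyd1 (-1.08), Flnc (-0.71) and Xirp2 (-0.39) were lost without replicate 3 of the sorted myoblasts, and Nebl (-1.52) without replicate 1. Smyd1 also lost its call without replicate 1 of the sorted iMPCs, and Xirp2 without replicate 1 or 3 of them. Myo18b was at 0.260, 0.404 and 0 CPM in iMPCs and at 28.7, 37.6 and 97.2 CPM in myoblasts (-7.83, adjusted p = 1.5e-06). Myom2 stood at 7.67, 17.9 and 7.55 CPM against 56.2, 191 and 829.2 CPM (-5.02, 3.7e-05), and Trim54 at 1.17, 2.06 and 0.930 CPM against 31.6, 28.1 and 51.6 CPM (-4.72, 2.5e-08). None of these 3 genes overlapped between the groups. The median over the 41 genes was -2.40. Of 8 proliferation markers, 5 were higher in sorted iMPCs, at 1121 to 1389 TPM against 288.9 to 679.2 TPM in sum, and their part in the scaffold levels was not tested.

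The sorted and bulk myoblasts differed in fewer of the genes, and the count moved with single libraries. In Pax7-positive myoblasts, 7 of the 41 genes were lower than in bulk myoblasts and none higher, where 4.03% of all genes were lower and 2.2% higher: Tcap (-5.27, adjusted p = 0.00015 in edgeR's quasi-likelihood test), Myot (-4.78, 0.0034), Myoz3 (-4.30, 0.015), Mybpc2 (-3.27), Myoz2 (-2.69), Csrp3 (-2.46) and Obsl1 (-1.77). Tcap was at 1.16, 1.34 and 0.815 CPM in sorted myoblasts and at 67.3, 60.6 and 2.77 CPM in bulk, and Myot at 0.918, 3.53 and 1.85 CPM against 76.7, 97.1 and 0.764 CPM. Replicate 3 of the bulk myoblasts lay near or below the sorted libraries. Without it 15 genes were called, without replicate 1 of the bulk myoblasts 4, without replicates 2 or 3 of the sorted ones 3 and 11, and with only the 6 libraries fitted 0. Titin itself, at 487.5, 544.5 and 1897 CPM in sorted and 1414, 1412 and 131.8 CPM in bulk myoblasts, overlapped and was not called.

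**Figure D5:**
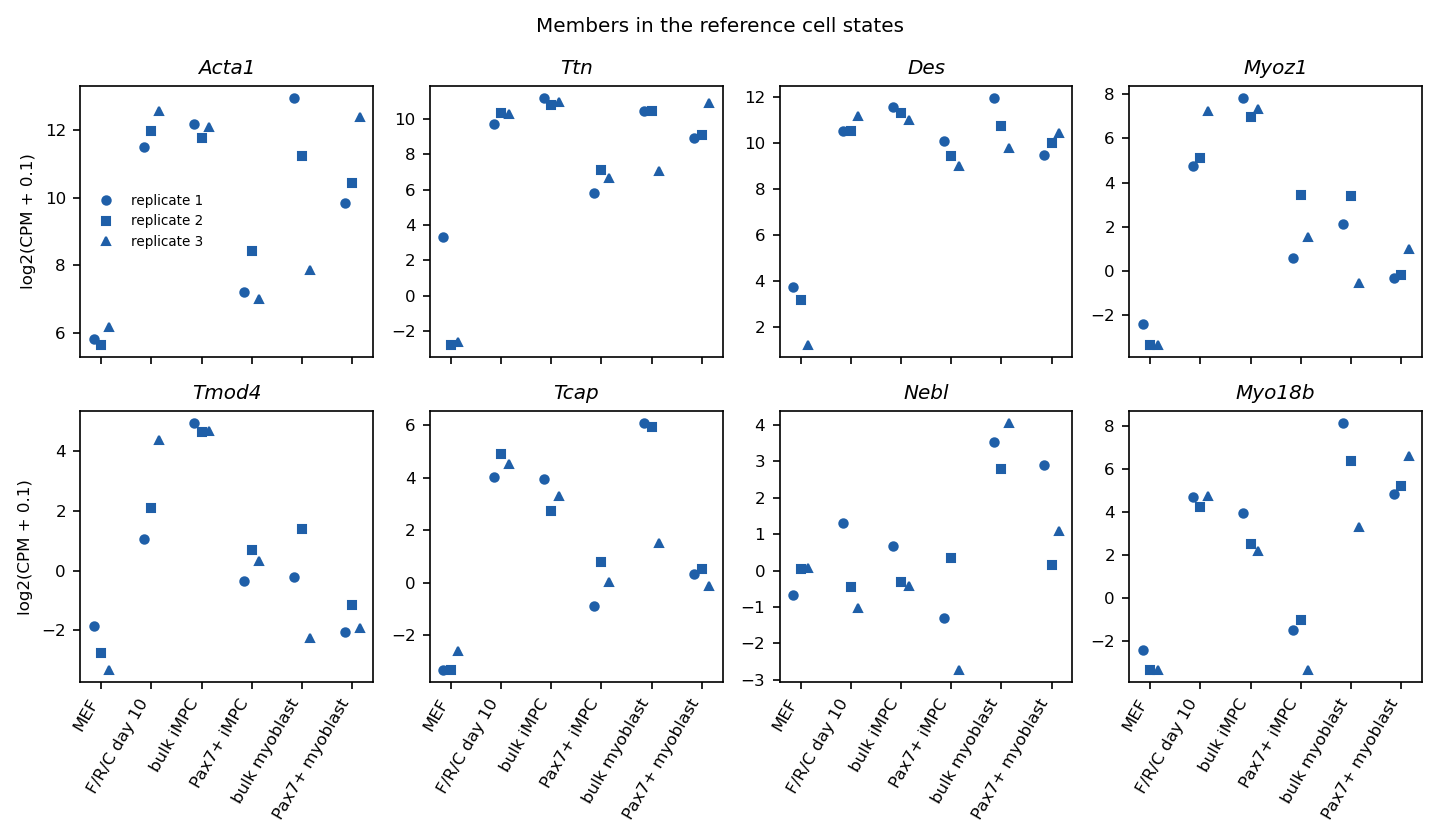
CPM of 8 genes in MEFs, on day 10 with F/R/C and in the 4 iMPC and myoblast groups, as log2(CPM + 0.1), 1 point per library and a shape per replicate number. Sorted Pax7-positive iMPCs lie below bulk iMPCs for the 7 genes other than Nebl, whose groups overlap, and replicate 3 of the bulk myoblasts lies below the other 2 for all genes but Nebl.

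Among 25 other genes associated with the sarcomere, 20 were higher than in MEFs on day 4 of MyoD alone and none lower. Of all genes tested, 16.5% were higher and 11.8% lower there. The 20 were led by Igfn1 and Mypn (log2 fold changes 13.68 and 11.33), a partner of filamin C and the Z-disc protein myopalladin. Igfn1 was listed without a read in MEFs, so its fitted value is not a bound. On day 10, 1 of the 25 was higher with F/R/C than with MyoD alone and 9 were lower, among them Hspb7 (-1.81), Capn3 (-1.71) and the chaperone partner Bag3 (-1.34). In that comparison 9.91% of all genes were higher and 13.4% lower. Of 9 regulators of the muscle programme, 4 were higher on day 4 of MyoD alone, among them Myod1 (9.83), Myog (9.24) and Mef2c (7.95). Between the arms on day 4, Myod1 was lower with F/R/C (-1.57), at 1004.6 against 3016 TPM. Myf6 (MRF4), a myogenic factor of late differentiation, was at 49.2 to 58.2 TPM with F/R/C and at most 0.0639 TPM with MyoD alone.

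On day 10, more of the non-muscle and smooth muscle paralogs of the scaffold genes were called lower than in MEFs with F/R/C than with MyoD alone. Their summed level was 23375 to 28913 TPM in MEFs and lower on day 4 of MyoD alone, at 13028 to 21281 TPM. By day 10 the sum was 10667 to 27667 TPM with MyoD alone and 6641 to 10229 TPM with F/R/C. Of 20 such genes, 1 was higher and 1 lower than in MEFs on day 4 of MyoD alone (Csrp1, 1.14, and Vim, -1.02), and none was called on day 10. Of all genes, 16.5% and 14.3% were higher on those days, and 11.8% and 4.64% lower. In cells with F/R/C, 1 was higher and 12 were lower on day 10, among them Lasp1 (-2.96), Actn1 (-2.42) and Flna (-2.41). There 19% of all genes were higher and 15.8% lower. Directly compared on day 10, 10 of the 20 were lower with F/R/C than with MyoD alone (13.4% of all genes) and 1 was higher (9.91%), with Actn1 at -2.14. Actn1, the non-muscle alpha-actinin, averaged 750.4 TPM in MEFs, 570.3 TPM on day 10 of MyoD alone and 127.9 TPM with F/R/C.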

How the data were processed

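RNA was measured in 45 libraries (TruSeq stranded, poly-A selected, single-end 100 base reads, per the labels' protocols). Per the submitters' processing notes, bcl2fastq 2.19, Trimmomatic 0.36, kallisto 0.44, edgeR 3.28 and the build GRCm38.p6 were used, and the transcript release is not given in the sources used here. Per the file headers, the authors' deposited files give estimated counts per transcript, which are not normalised and divide a read between the transcripts it fits. The deposited TPM values are scaled to length and to a fixed sum and keep no depth. Of 121843 transcripts, 121104 matched GENCODE M21 (GRCm38), with 99.4% to 99.8% of the reads, and 739 did not. Estimated counts were summed per gene and rounded. For 27 members every value under 1000 reads was whole within 0.01, and for 14 (Neb, Nebl, Tmod1, Cap2, Actn2, Myoz2, Myoz3, Pdlim3, Xirp1, Xirp2, Myom2, Mybpc1, Klhl41 and Trim63) some reads were divided with another gene.

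All 45 libraries were fitted in 1 quasi-likelihood model of edgeR 4.0.16 (R 4.3.3, TMM, filterByExpr by group, 17325 genes, 30 residual degrees of freedom, no replicate block). Calls needed a p adjusted by Benjamini and Hochberg of less than 0.05 and a log2 fold change of 1 or more in size. CPM values are scaled by TMM. A level of 3 reads was taken as the smallest detectable, which covers counting error only, as the reads carry no molecular identifiers. On simulated counts for the comparison of the arms on day 4 (17134 genes, 200 changed 4-fold), 155 genes were called, 152 of them changed ones and 3 false.

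Same-numbered libraries deviated together (every correlation over 0.1) within the arms between days, and between the arms on days 2, 4 and 6 (0.346 to 0.375, 0.241 to 0.332 and 0.223 to 0.362), which was taken to show that the numbers pair these libraries. The p-values and standard errors given above come from the fit that leaves this pairing out. Alternatives were DESeq2 1.42.0, its size factors in edgeR, no filter, no minimum fold, a replicate block, only the groups compared, and leaving out each library. For onset they were other cuts, TPM and no TMM scaling. For transcript shares, TPM in place of reads and leaving out libraries were added after seeing the data.

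Values in single libraries are given for the highest member of each role, both actins, members called between the arms on at least 3 days or in opposite directions, members called in the change from day 2 to day 10, and at most 3 members per comparison of the other groups. A few others, such as Actn3, Tmod4, Myo18b and the transcripts, were chosen after their values were seen. Other genes were named only from lists, at most 4 a list by size of change, and an item that this rule would name is not reported here. The members and all lists (other sarcomere genes, non-muscle paralogs, regulators, and cardiac, smooth muscle, fibroblast, progenitor, proliferation, adipocyte, neuronal and endothelial markers) were chosen with earlier results of these data known.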

Additional observations from a re-analysis of the deposited data

Results flagged for a closer look

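Of the 41 genes, 2 had a difference between the arms that itself changed from day 2 to day 10, by a test of that change in edgeR's quasi-likelihood model. Of all genes, 2.24% had a positive and 3.77% a negative call, so the 41 as a set did not stand out. For Myoz1 (calsarcin-2) the log2 fold change of F/R/C against MyoD alone was 4.75 larger on day 10 than on day 2 (SE 1.15, adjusted p = 0.013). The mean CPM for day 2 and day 10 was 1.32 and 1.60 in the arm of MyoD alone, and 2.18 and 70.8 with F/R/C. Over 18 alternatives the value ran from 3.66 to 5.40 and the call was never lost. For Xirp2 the same quantity came to -5.80 (SE 1.68, adjusted p = 0.029). Its mean CPM was 6.08 and 347 with MyoD alone, and 30.1 and 31.0 with F/R/C. Over 18 alternatives the value ran from -6.42 to -4.50, and the call was lost in 7 of them.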

How the results depend on the processing

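Of the 26 counts of called members, the count stayed within 1.5 times with DESeq2 in 23, with DESeq2's size factors in 26, with no minimum fold in 26, with no filter in 25, with the replicate block in 25, and with only the compared groups fitted in 17. Of 6574 values of called members under the alternatives, 6352 kept their call, 222 lost it and 0 changed sign. With only the groups compared, the counts became 6 for F/R/C against MyoD alone on day 2, 10 on day 6, 14 for day 4 against day 2 of MyoD alone, 0 for its day 10 against day 4, 28 and 3 for the same intervals with F/R/C, 3 for bulk iMPCs against day 10 with F/R/C, 3 against bulk myoblasts, and 0 for sorted against bulk myoblasts. DESeq2 called 7 and 16 members for day 4 against day 2 without and with F/R/C, and 2 for bulk iMPCs against day 10 with F/R/C. With no filter, 1 member was called for day 10 against day 4 of MyoD alone. With the replicate block, 3 were called for bulk iMPCs against day 10 with F/R/C, and the pairing moved no other count by over 1.5 times. Leaving out single libraries gave 0 to 1, 4 to 5, 4 to 5, 3 to 6 and 3 to 7 calls between the arms on days 2 to 10, and 1 to 2 for the change from day 2 to day 10. Within the arms it gave 1 to 4 and 0 to 1 calls for MyoD alone (day 4 against 2, day 10 against 4) and 4 to 10 and 0 to 1 with F/R/C. It gave 0 to 3 for bulk iMPCs against day 10 with F/R/C and 3 to 15 for sorted against bulk myoblasts. Members at 50% of their highest day by day 2 numbered 4 to 11 with F/R/C. At cuts of 25% and 75% they numbered 28 and 6 with MyoD alone and 24 and 2 with F/R/C. The cause of these shifts was not tested. Depth limits the members near 3 reads per library, above all Mybpc3 and Myoz3.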

Other observations

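The transcript Actn2-203, which has the same coding exons as the main form of alpha-actinin 2 and differs at its ends, took 59.0%, 58.1% and 57.1% of the Actn2 reads in bulk iMPCs and 50.4% in replicate 2 of the bulk myoblasts. In the other 2 bulk myoblast libraries it took 0.0549% and 0%. The sorted iMPCs had 25.1%, 17.4% and 0%, the sorted myoblasts had 0.0211%, 27.4% and 13.3%, and no library after dox in the 2 arms had more than 1.42%. The 4 libraries with 50.4% or more are the deepest of the 45, and the part of depth in this share was not tested.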
